A study of Danio rerio with 1109 samples.

Results

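The cells described here are 87 of 1109 single cells from the trunk of zebrafish embryos at 48 hpf, all of them fibroblast-like by a gate on 2 genes and positive for the chemokine gene cxcl12b. They were taken from the 744 cells of the vegfc:Gal4FF;UASGFP; kdrl:mCherry line, which carries a Gal4FF driver under vegfc with a GFP responder and mCherry under kdrl. A member had at least 20 raw counts of cxcl12b, at least 20 of pdgfra or lum, and fewer than 20 of en1a, a homeobox gene of cells at the horizontal myoseptum (HM). Of the members, 45 were in vegfc plate 1 and 42 in vegfc plate 2. The plate numbers tell the plates apart and mean nothing else. Each member was compared, within its plate, with the cells that passed the pdgfra or lum gate with fewer than 20 counts of cxcl12b. These comparison cells were of 2 kinds. In plate 1, 81 had fewer than 20 counts of en1a (en1a-low cells) and 47 had at least 20 (en1a-positive cells), and in plate 2 there were 85 and 43. A further plate, from the pdgfra:mCit line at the same age, was used only to see what the same rule finds in another line.

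Cells were dissociated from many pooled trunks, sorted by reporter fluorescence into wells and sequenced from full-length cDNA by Smart-seq2. The dissociation was partial, so that cells near the surface of the trunk were enriched. The labels give the line and plate of a cell but neither its animal nor its sort gate. GFP-positive and mCherry-positive sorts of the vegfc line can therefore not be told apart, and each class of cells counts as 1 sample per plate. For that reason no p-value was computed, and a difference was judged by whether it was found in both vegfc plates. A gene is called higher or lower when the log2 ratio of the summed level in CPM (gene counts scaled to a total of 1e+06) plus 1 CPM was at least 1, or at most -1, in each vegfc plate. Shares of cells are those with at least 20 counts of a gene, the threshold that the study set for expressing cells in its co-expression analysis of 4 genes (adamts3, adamts14, ccbe1 and vegfc), here applied to all genes, with the exact Clopper-Pearson 95% interval in parentheses. The intervals of shares cover the sampling of cells only, and the exact Poisson intervals of summed levels cover the counting of reads only. The library reads were copied by PCR and carry no molecular identifier, so the Poisson intervals do not cover the counting of molecules. They also leave out the spread between cells, and neither kind covers differences between animals. A gene found in 0 cells can still be in up to 6.67% of 45, 7.14% of 42, 25% of 12 members, or in up to 2.34% of the comparison cells of a plate. These limits are 3 divided by the number of cells, an approximation and not the exact interval.

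Members were as deeply sequenced as the cells they were compared with. Their median depth was 301685 gene counts in plate 1 and 315310 in plate 2, against 276798 and 299949 in the comparison cells. Depth did differ within the comparison cells, with medians of 318311 and 337859 in en1a-low cells and 243121 and 240060 in en1a-positive cells. The median number of genes found in a member was 6185 in plate 1 and 4484 in plate 2. GFP transcripts were present at low counts in almost every well of plate 1, so that a threshold of 200 counts was used for the reporter. It was met by 5 of 45 and 6 of 42 members, by 7 of 81 and 8 of 85 en1a-low cells, and by 45 of 47 and 34 of 43 en1a-positive cells. For the vegfc reporter, members thus resembled the en1a-low cells in these counts. The mCherry reporter reached 20 counts in 1 of the 87 members.

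Cxcl12 is a secreted chemokine that guides migrating cells through the receptor Cxcr4, and zebrafish carry a pair of genes for it, cxcl12a and cxcl12b. Fibroblasts and other stromal cells are a common source of this ligand in vertebrates. The receptor gene pdgfra and the proteoglycan gene lum, used for the gate, mark connective tissue fibroblasts, which lay down collagens and other matrix. In the zebrafish trunk such cells descend in large part from the sclerotome of the somites.

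Members made up 26% (19.6 to 33.2) of the gated cells of plate 1 and 24.1% (18 to 31.2) of those of plate 2. Over both plates they were 25.1% (20.6 to 30.0) of the gated cells. The cxcl12b counts that chose them ran from 21 to 1738 in plate 1 and from 20 to 1640 in plate 2. As a level per cell, the median was 1152 CPM in plate 1 and 1006 CPM in plate 2. Of the members, 3 lay at 20 to 29 counts. Of the en1a-low cells just outside the rule, 7 had 10 to 19 counts of cxcl12b, with a highest value of 15, 43 had 0 and the rest lay between. Few cells therefore lay near the threshold. The summed level of cxcl12b was 1514 CPM (1493 to 1535) in the members of plate 1 against 11.1 CPM in the comparison cells, and 1262 CPM (1244 to 1281) against 3.87 CPM in plate 2. This difference was set by the rule. A further 4 cells of plate 2 and 0 of plate 1 passed the cxcl12b threshold and the gate but had 20 or more counts of en1a.

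Several fibroblast genes other than those of the gate were found in most members. The type I collagen gene col1a1a reached 20 counts in all 45 and all 42 members, col1a2 in 45 and 41, col5a1 in 44 and 42, and the proteoglycan gene dcn in 38 and 37. The gate itself was met through pdgfra by 76 members and through lum by 37, with 26 passing both and 11 passing on lum alone. Of 9 fibroblast genes tested other than pdgfra and lum, 0 were called higher and 1, the collagen VI gene col6a1, was called lower, with log2 ratios of -1.16 and -1.20. The median log2 ratio of this list was 0.03 in plate 1 and -0.24 in plate 2. The ratios depended on the kind of comparison cell, with list medians of 0.62 and 0.56 against en1a-low cells. The 9 genes summed to 34273 CPM in members, 21662 in en1a-low and 56218 in en1a-positive cells of plate 1. In plate 2 they summed to 16025.5, 10948 and 36723 CPM. col1a1a, shown in the plot of levels per cell, had log2 ratios of 0.42 and 0.23 against en1a-low cells. Against en1a-positive cells they were -0.59 and -1.05.

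**Figure D1:**
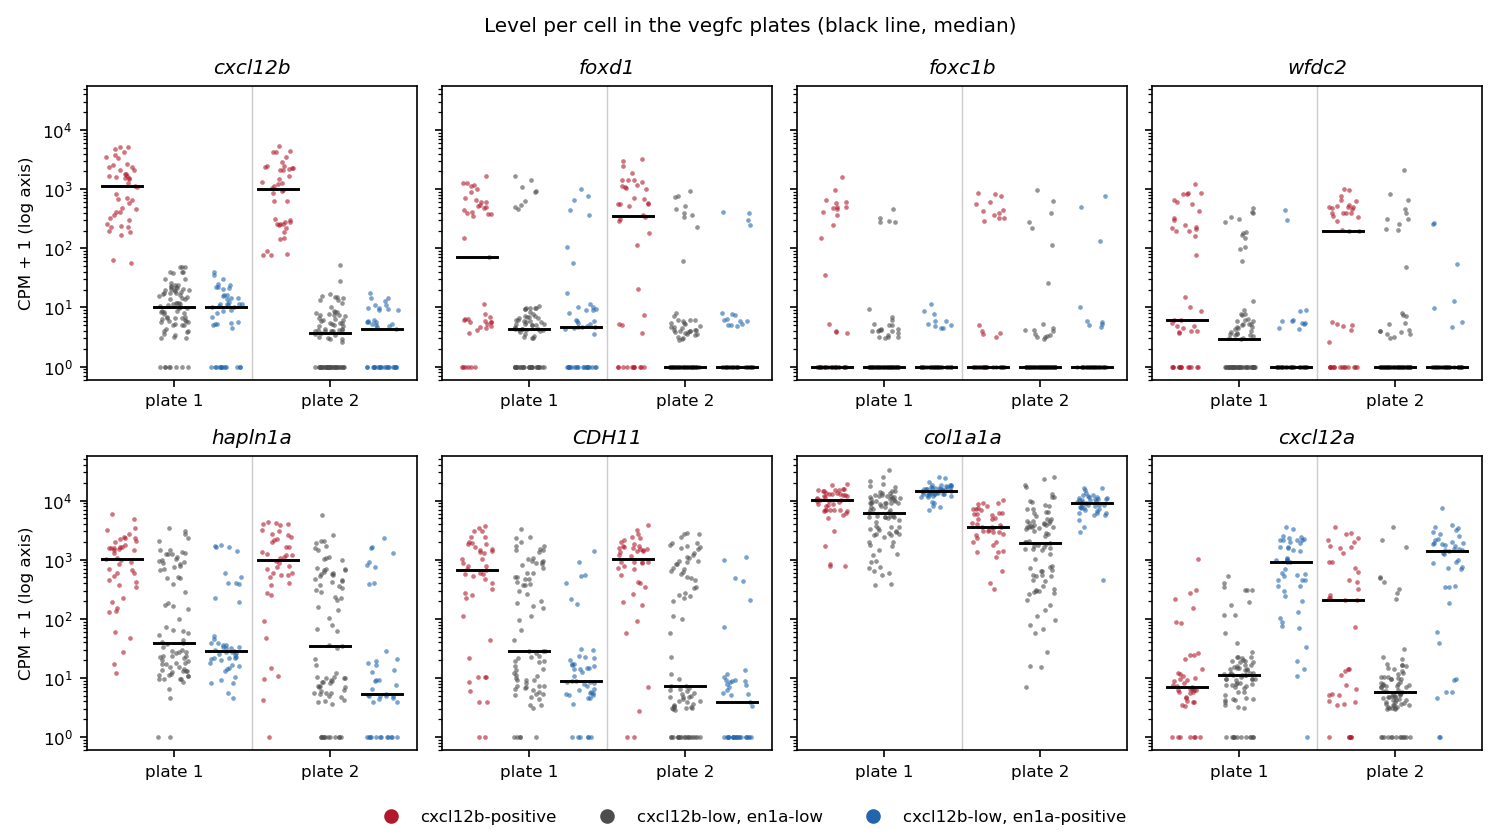
Level of 8 genes in each cell of the vegfc plates, as CPM plus 1 on a log axis, for members (red), en1a-low comparison cells (grey) and en1a-positive comparison cells (blue), with the median as a black line. hapln1a and CDH11 have medians of 1036 and 670 CPM in members of plate 1, whereas foxd1, foxc1b and wfdc2 are split between cells near 0 and cells at high level. cxcl12a differs between the plates.

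Markers of other cell types were checked in the same cells. The genes spi1b and ptprc (leukocytes) and sox10 (neural crest) reached 20 counts in 0 of the 87 members, and the endothelial gene cdh5 in 1. However, ptprc, sox10 and cdh5 had mean levels of only 1.64, 1.59 and 1.86 CPM over members and comparison cells of the vegfc plates. This is below the 5 CPM needed for a gene to be tested, so their rarity says little. A few abundant transcripts of other tissues were spread over many wells, both of members and of comparison cells. lyz, a lysozyme gene of leukocytes, reached 20 counts in 71.1% of members and 68% of comparison cells of plate 1, and in 52.4% and 30.5% in plate 2. krt4, a keratin gene of the skin, did so in 62.2% against 57% in plate 1 and in 28.6% against 27.3% in plate 2. actc1b, a muscle actin gene, was found in 55.6% against 44.5% and in 47.6% against 39.8%. Summed over its 6 measured genes, the immune list stood at 293.4 CPM in members and 237.4 CPM in comparison cells of plate 1, and at 120.3 and 165.6 CPM in plate 2. The epithelial list of 7 genes stood at 446 and 920 CPM in plate 1 and at 71.5 and 382 CPM in plate 2. In plate 1, 37.8% of members had at least 20 counts of 2 or more immune markers, against 22.7% of comparison cells. For epithelial markers the shares were 35.6% and 29.7%. In plate 2 these shares were 2.38% against 2.34% for immune and 2.38% against 3.12% for epithelial markers. In all, 39.1% of members and 50.4% of comparison cells had at least 20 counts of 2 or more markers of 1 other cell type. Without the cells with 2 or more markers of 1 other type, 16 of the 29 named higher genes described next were still called.

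Of the markers proposed for this population, foxd1 was the most widespread. foxd1 encodes a forkhead transcription factor, known in the mouse from the stromal progenitors of the kidney. It was found in 23 of 45 members of plate 1, or 51.1% (35.8 to 66.3), against 11.7% (6.71 to 18.6) of comparison cells, and in 26 of 42 members of plate 2, or 61.9% (45.6 to 76.4), against 10.2% (5.52 to 16.7). Its level per member ran from 0 to 1703 CPM with a median of 69.4 in plate 1, and from 0 to 3208 CPM with a median of 351.6 in plate 2. The comparison cells had medians of 3.39 and 0 CPM and highest values of 1682 and 915 CPM, so that the ranges of single cells overlapped. The intervals of the shares cover the sampling of cells only. Like the other proposed markers, foxd1 was chosen with earlier results of these data known, so its shares only describe the cells. The log2 ratios of the summed levels were 1.95 and 3.72.

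The other proposed markers were found in a minority of the members. crispld1b, a gene for a secreted protein with a cysteine-rich domain, was found in 33.3% (20 to 49) of members against 3.91% of comparison cells in plate 1 and in 9.52% (2.66 to 22.6) against 3.12% in plate 2, with log2 ratios of 3.74 and 2.56. col18a1b encodes a collagen XVIII chain, which belongs to basement membranes. It was found in 15.6% (6.49 to 29.5) and 31% (17.6 to 47.1) of members against 3.91% of comparison cells in each plate, at log2 ratios of 1.93 and 2.34. Without the cells that carried markers of another cell type, col18a1b was not called, and its log2 ratio was -0.02 as a mean over the plates. That setting kept 16 members of plate 1 and 37 of plate 2. kazald2, whose product has a Kazal-type domain, was found in 28.9% (16.4 to 44.3) and 19% (8.60 to 34.1) of members against 12.5% and 7.81%, with log2 ratios of 1.60 and 1.37.

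wt1b, a paralogue of the Wilms tumour transcription factor gene, did not mark the members of both plates. In plate 1 it reached 20 counts in 1 of 45 members, at a summed level of 1.81 CPM (1.16 to 2.70) against 0.72 CPM in comparison cells. In plate 2 it was found in 12 of 42 members, or 28.6% (15.7 to 44.6), against 4.69% of comparison cells, at 106.2 CPM (100.9 to 111.7) against 13.3 CPM. A second gene of this family, listed under the name WT1, was called higher in both plates. WT1 reached 20 counts in 5 of 45 members and 0 comparison cells of plate 1, and in 9 of 42 members and 6 comparison cells of plate 2. Its summed level was 31.3 against 0.24 CPM and 77.3 against 11.7 CPM. Names in capitals, here and below, are those of orthologues of the zebrafish genes, as the table of gene names gives them. Such a name need not tell which zebrafish copy is meant. For GDF10, RDH10, CRABP1 and PRRX1 below, neither the a nor the b copy could be matched to an identifier.

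Taken as a set, the 5 markers other than cxcl12b were spread over the members rather than shared by them. At least 1 of the 5 was found in 70 of 87 members, or 80.5% (70.6 to 88.2), against 22.7% (17.7 to 28.3) of comparison cells. Among en1a-low cells the share was 28.9% (22.2 to 36.4). The 5 markers were chosen with earlier results of these data known, so these contrasts only describe the cells. At least 2 were found in 46% of members and 6.25% of comparison cells. 17 members had 0 of the 5, 30 had 1, 28 had 2 and 12 had 3, and 0 had 4 or 5. These 5 markers were thus not a common set shared by the cxcl12b-positive fibroblasts of this rule. Some genes outside the 5 were in most members, such as hapln1a in 78 of 87.

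**Figure D2:**
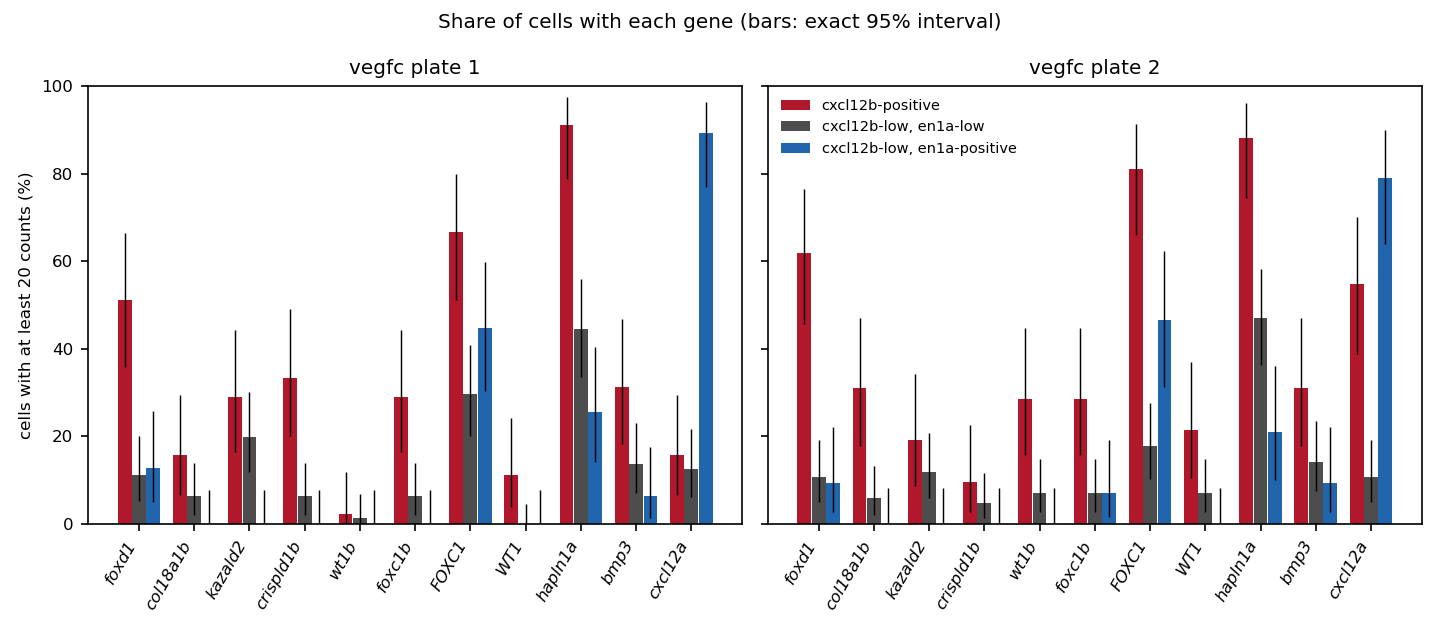
Share of cells with at least 20 counts of 11 genes in each vegfc plate, in percent, for members (red), en1a-low (grey) and en1a-positive (blue) comparison cells, with exact 95% intervals as bars. foxd1, FOXC1 and hapln1a are above both kinds of comparison cell in both plates, and wt1b and cxcl12a are more frequent in the members of plate 2, at 28.6% and 54.8%, than in those of plate 1.

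Across all 11969 genes tested, 2.57% were called higher in members and 6.17% were called lower. A single plate gave far more, with 10.7% and 10.3% of genes past the same fold upwards and 18.9% and 17.5% downwards in plates 1 and 2, and 482 genes were past it in opposite directions in the plates. Most of the called genes were found in few cells. When mean log2 levels per cell were compared instead of summed levels, 15.9% of the higher and 8.66% of the lower calls remained. Only 35 of the higher genes were found in at least 25% of the members of each plate. The genes named below are 29 of these 35 together with cxcl12b, ranked by the smaller of the plate ratios. All 29 differences are descriptions of the cells that the rule chose, since a gene that follows cxcl12b from cell to cell had to come out in this contrast. Counts of called genes from the gene lists are to be read beside the shares of 2.57% higher and 6.17% lower.

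**Figure D3:**
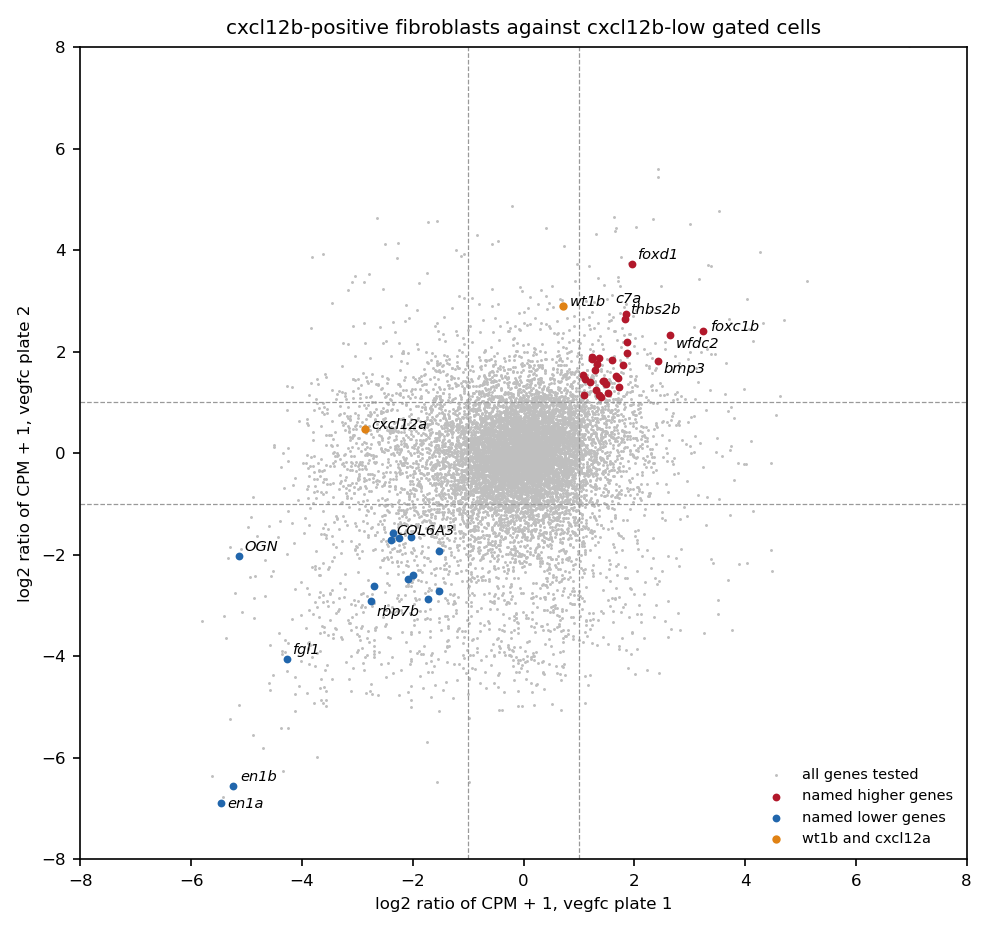
Log2 ratio of CPM plus 1 between members and comparison cells in vegfc plate 1 (x axis) and plate 2 (y axis) for the genes tested (grey), with the 29 named higher genes in red, the 15 named lower genes in blue and wt1b and cxcl12a in orange. cxcl12b, at 6.97 and 8.02, lies outside the axes, and dashed lines mark ratios of 1 and -1. The named genes sit past the lines in both plates, while wt1b and cxcl12a are past a line in 1 plate.

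Several of the named genes encode transcription factors. foxc1b, a forkhead gene of somite-derived mesenchyme, was found in 13 of 45 and 12 of 42 members, or 28.9% and 28.6%, against 3.91% and 7.03% of comparison cells. Its summed level was 154.3 against 15.5 CPM in plate 1 and 144.5 against 26.4 CPM in plate 2, and its log2 ratios were 3.24 and 2.41. The related gene listed as FOXC1 was more widespread, in 66.7% (51 to 80) of members against 35.2% in plate 1 and in 81% (65.9 to 91.4) against 27.3% in plate 2. With log2 ratios of 0.79 and 1.98 it was not called against all comparison cells, and it was called against en1a-low cells, at 1.19 and 2.69.

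The early B cell factor genes EBF2 and EBF3, which act in mesenchymal precursors in the mouse, were also higher. EBF3 was found in 71.1% and 69% of members against 43.8% and 32% of comparison cells, with log2 ratios of 1.36 and 1.88. EBF2 was found in 62.2% and 81% against 30.5% and 28.9%, with log2 ratios of 1.24 and 1.85. A gene listed as RBPJL, related to the Notch pathway effector RBPJ, was found in 57.8% and 42.9% of members at low level, with median values of 79.5 and 60.7 CPM.

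Of the 14 sclerotome regulators tested, 2 were called higher, foxc1b and twist2, and 0 were called lower, and the list's median log2 ratios were 0.10 and 0.52 against -0.06 in each plate over all genes tested. twist2, a basic helix-loop-helix gene of mesenchyme, was found in 7 of 45 and 11 of 42 members against 4 and 5 comparison cells, with log2 ratios of 1.41 and 1.11. Against en1a-low cells twist2 was not called, at 2.17 and 0.91. Of 19 forkhead genes, 3 were called higher, foxd1, foxc1b and foxm1, and 2 lower, foxa1 and FOXJ1. foxm1, a factor of dividing cells, was found in 3 and 6 members and had log2 ratios of 1.33 and 1.34. None of the 15 cell cycle genes was called in either direction, with list medians of -0.30 and 0.53.

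Other named genes encode matrix proteins or other secreted proteins. hapln1a, which encodes a link protein that ties hyaluronan to proteoglycans, was found in 41 of 45 members, or 91.1% (78.8 to 97.5), against 37.5% of comparison cells in plate 1, and in 37 of 42, or 88.1% (74.4 to 96), against 38.3% in plate 2. Its level per member ran from 11.2 to 5955 CPM with a median of 1036 in plate 1, and from 0 to 4384 CPM with a median of 1000 in plate 2. The comparison cells had medians of 30.9 and 9.45 CPM. Nearly every member was therefore above the typical comparison cell for hapln1a, although the highest comparison cells, at 3396 and 5671 CPM, lay within the range of the members. The log2 ratios were 1.87 and 1.97.

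MATN4, for a matrilin of the pericellular matrix, was the most abundant of the named genes in counts. It stood at 3974 against 1512 CPM in plate 1 and at 2252 against 1052 CPM in plate 2, and was found in 88.9% and 90.5% of members. wfdc2, for a small secreted protein with whey acidic protein domains, was found in 42.2% and 52.4% of members against 11.7% and 9.38%, at 206.3 against 32.1 CPM and 240.1 against 47 CPM, and had log2 ratios of 2.65 and 2.33. The thrombospondin gene thbs2b was found in 46.7% and 45.2% of members against 10.9% and 9.38%, with log2 ratios of 1.83 and 2.64. c7a, for a complement component of the membrane attack complex, had log2 ratios of 1.85 and 2.74 and was found in 31.1% and 45.2% of members. Without the cells with markers of another cell type, MATN4, thbs2b and c7a were each past the fold in 1 plate only, at 1.41 and 0.73, 0.46 and 2.26, and 0.92 and 2.52.

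Both emilin genes on the list encode glycoproteins that sit with elastic microfibrils. emilin2b was found in 77.8% and 69% of members against 32.8% and 25.8% of comparison cells, with log2 ratios of 1.67 and 1.51. emilin1a was found in 64.4% and 52.4% against 32.8% and 28.1%, with log2 ratios of 1.31 and 1.25. cnmd, for chondromodulin, known in mammals as an inhibitor of vessel growth in cartilage, was found in 57.8% and 64.3% of members against 14.8% and 13.3%. Its log2 ratio was 1.43 in each plate, because a few comparison cells held very high levels, up to 4762 and 3551 CPM against 1044 and 1419 CPM in the highest member. Also called were angptl2a, an angiopoietin-like gene, at 1.33 and 1.74, and the genes listed as CTHRC1, at 1.71 and 1.47, and CPXM1, at 1.46 and 1.41. Without the cells with markers of another type, emilin1a (1.16 and 0.88), angptl2a (0.61 and 1.51) and CPXM1 (0.70 and 1.28) were past the fold in 1 plate only. CTHRC1 and CPXM1 are uncertain because their names are each shared by 2 zebrafish identifiers.

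At the cell surface, CDH11, for a cadherin of mesenchymal cells, was found in 75.6% and 90.5% of members against 35.2% and 34.4% of comparison cells. Its median level per member was 670 and 1046 CPM against 15.9 and 5.05 CPM in comparison cells, and its log2 ratios were 1.80 and 1.74. cdh2, for N-cadherin, went the other way. It was found in 33.3% and 38.1% of members against 68% and 75% of comparison cells, with log2 ratios of -2.03 and -1.66. cd248b, for endosialin, a glycoprotein of stromal cells, was found in 73.3% and 69% against 35.9% and 29.7% (log2 ratios 1.29 and 1.63). It was not called without the cells with markers of another type, at 0.92 and 1.61, nor with pdgfra and lum both required, at 0.97 and -0.33. s1pr3a, for a sphingosine-1-phosphate receptor, had log2 ratios of 1.60 and 1.83, and fgfrl1b, for a receptor-like protein of the FGF pathway that lacks a kinase domain, 1.07 and 1.53. The ratios of fgfrl1b were 0.49 and 1.32 without the cells with markers of another type and 0.06 and 0.38 with both gate genes required.

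Among signalling ligands, bmp4, for a bone morphogenetic protein, was in most members. It was found in 36 of 45 members (80%) against 32% of comparison cells in plate 1, and in 32 of 42 (76.2%) against 40.6% in plate 2. Its median level per member was 506 and 486 CPM against 9.15 and 4.91 CPM, and its log2 ratios were 1.51 and 1.05. Against en1a-low cells bmp4 was not called, at 1.07 and 0.88, while against en1a-positive cells its ratios were 3.85 and 1.65. bmp3, which opposes other BMPs in mammals, was found in 31.1% and 31% of members against 10.9% and 12.5%, with log2 ratios of 2.43 and 1.82. Of 22 genes of the BMP and TGF-beta list, 3 were called higher and 0 lower, beside 2.57% and 6.17% over all genes. The third, chrd, for the BMP antagonist chordin, rested on 3 and 2 members and had log2 ratios of 1.61 and 2.68. The list medians were 0.03 and 0.31.

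Wnt pathway genes went in both directions, with 2 of 20 called higher and 6 called lower, beside 2.57% higher and 6.17% lower over all genes. The list medians were -1.29 and -0.66. sfrp5, for a secreted Wnt inhibitor, was found in 8 of 45 and 19 of 42 members against 10 and 11 comparison cells, with log2 ratios of 1.98 and 2.70. WNT4 rested on 1 and 5 members, at 8.09 and 60.3 CPM against 0.69 and 0.27 CPM. The lower genes were dkk2, frzb, WNT2B, wnt5a, lef1 and apcdd1l. Against en1a-low cells frzb was not called, with log2 ratios of 1.02 and -4.06. apcdd1l, related to a membrane-bound Wnt inhibitor, was found in 0 of 45 and 2 of 42 members against 29 and 19 comparison cells, and lef1, a transcriptional effector of the pathway, in 4 and 2 members against 18 and 18. Of 8 genes of the chemokine list other than cxcl12b, the interleukin gene il11a was called higher and 0 were called lower. il11a was found in 6 and 9 members, at 37.6 against 13.1 CPM and 91.5 against 8.30 CPM.

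The comparison cells were of 2 kinds, set apart by their en1a counts alone, and many differences depended on which kind the members were set against. Against the en1a-low cells alone, 2.57% of 12021 genes were called higher and 6.36% lower. Of 11782 genes tested in both comparisons, 1.72% were called higher in both and 4.43% lower in both. The comparisons share the members and the en1a-low cells. Of the 29 named higher genes, 22 were called against the en1a-low cells and 26 against the en1a-positive cells, and all 29 had ratios above 0 against either kind in both plates. The 7 not called against the en1a-low cells were cnmd, emilin1a, RBPJL, ms4a17a.7, MATN4, fgfrl1b and a gene known by a clone name only. For MATN4 and fgfrl1b the log2 ratios were 0.89 and 0.65, and 0.56 and 1.08, against en1a-low cells, but 5.50 and 7.04, and 6.05 and 7.41, against en1a-positive cells. Of the markers, kazald2 was likewise no longer called, at 1.09 and 0.94. By contrast, foxd1 (1.85 and 3.62), foxc1b (2.77 and 2.45) and hapln1a (1.68 and 1.85) kept ratios close to those against all cells. List genes called against all comparison cells but not against en1a-low cells included bmp4, twist2, gli3, frzb, col6a1, lhx1a and egfl7.

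**Figure D4:**
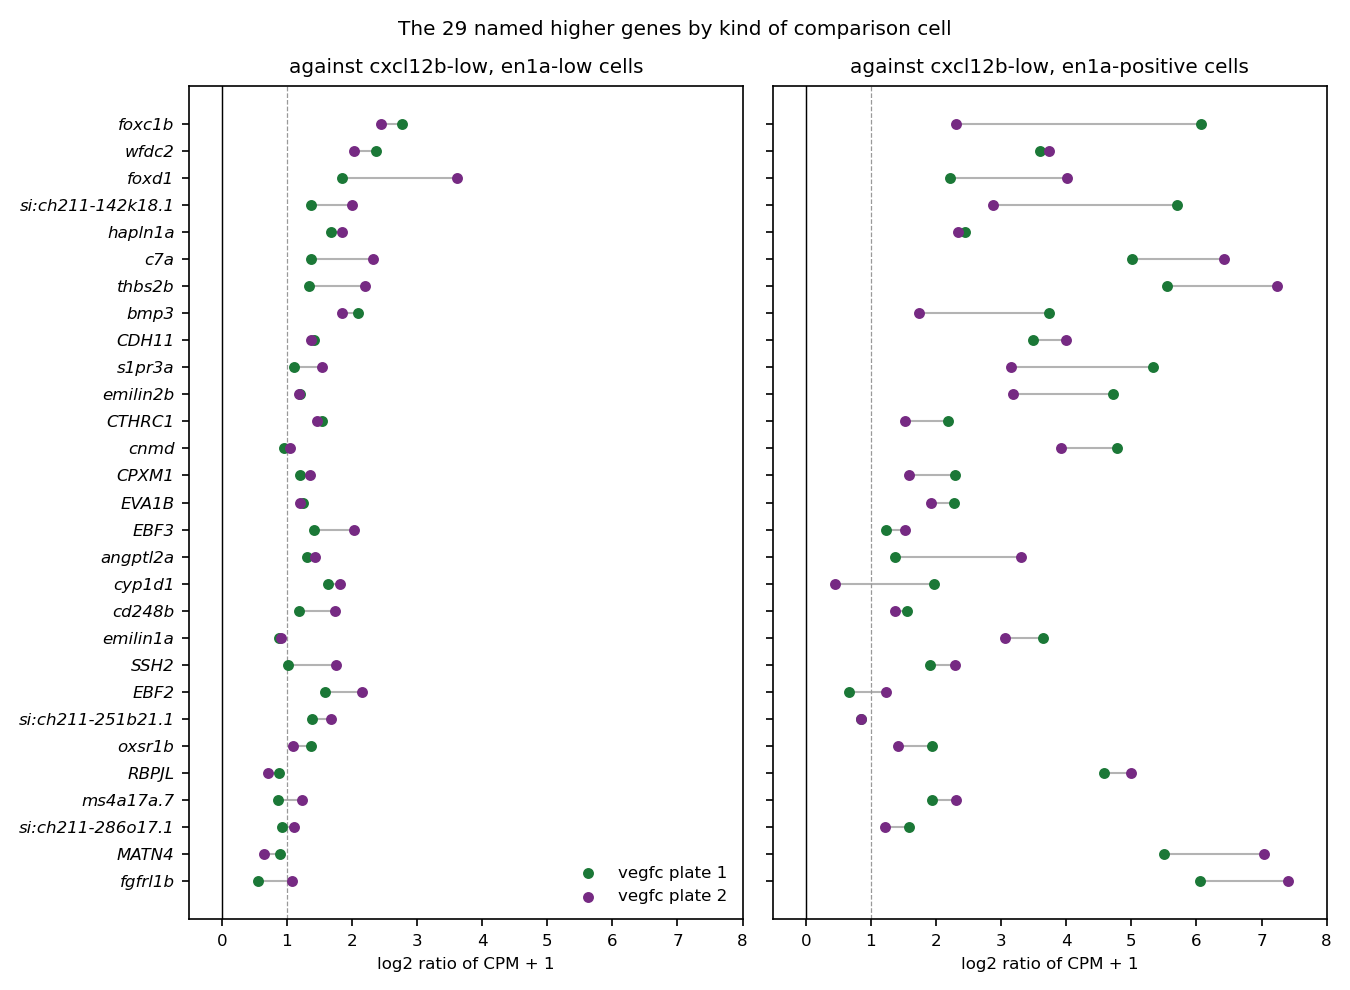
Log2 ratio of CPM plus 1 of the 29 named higher genes in members against en1a-low (left) and en1a-positive (right) comparison cells, with vegfc plate 1 in green and plate 2 in purple and a dashed line at 1. MATN4 and fgfrl1b lie near the line on the left and above 5 on the right, whereas EBF2 and cyp1d1 are nearer to the line on the right.

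Against en1a-low cells, 11 of the 15 named lower genes had ratios below 0 in both plates and 3 of them were called lower. en1a itself was part of the rule, which kept en1a-positive cells out of the members but not out of the comparison cells. A gene that follows en1a from cell to cell therefore had to come out lower against all comparison cells. Its paralogue en1b stood at 13.4 against 543 CPM in plate 1 and at 4.90 against 559 CPM in plate 2. fgl1, for a secreted fibrinogen-like protein, reached 20 counts in 1 member of each plate against 40.6% and 35.9% of comparison cells, with log2 ratios of -4.28 and -4.05. glula, for a glutamine synthetase, was found in 17.8% and 14.3% of members against 40.6% and 39.1% (log2 ratios -2.08 and -2.49). Against en1a-low cells none of these genes was called, with -0.01 and -1.19 for en1b, -0.58 and -1.26 for fgl1, and -0.16 and -0.72 for glula. rbp7b, for a retinol-binding protein, had log2 ratios of -2.75 and -2.91 against all comparison cells but of 0.54 and 1.27 against en1a-low cells. The 3 called against en1a-low cells were cdh2, COL6A3 and TSPAN18. COL6A3, for a collagen VI chain, had log2 ratios of -2.39 and -1.71 against all comparison cells and of -1.86 and -1.26 against en1a-low cells. TSPAN18, whose name 2 identifiers share, had -1.85 and -2.23 against en1a-low cells.

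Counted by list and without en1a, which the rule used, 4 of 14 HM genes were called lower (en1b, ndnfl, sned1 and rbp7b) and 0 higher, with medians of -1.57 and -1.11. Against en1a-low cells 1 was higher and 1 lower, and the medians were 0.36 and 0.72. The HM list was taken from genes that the study had picked from these same cells. Without en1a, its summed level was 1759 and 1806 CPM in members, 1172 and 1149 CPM in en1a-low cells and 10846 and 11509 CPM in en1a-positive cells, a class that was defined by en1a.

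Some genes of fin mesenchyme and of the mesothelium were lower in the members, and against en1a-low cells 5 of each list were called lower. Over all genes tested, 6.17% were lower against all comparison cells and 6.36% against en1a-low cells. Of 8 fin mesenchyme genes, and2, fbln1, msx1b and msx2b were called lower and hapln1a higher. The homeobox genes msx1b and msx2b had log2 ratios of -2.24 and -1.91, and of -1.67 and -1.64. Their ratios to en1a-positive cells were 3.05 and 3.50 for msx1b, and 3.48 and 4.03 for msx2b. Those of fbln1 were 1.18 and 1.47, and those of and2 were 0.998 and 0.847. For and2, fbln1, msx1b and msx2b, members thus lay below the en1a-low cells and above the en1a-positive cells. For and2, an actinodin of the fin fold, the summed level was 47.6 against 405 CPM and 43.7 against 331.9 CPM, although a larger share of members than of comparison cells had it in plate 1 (26.7% against 18.8%), and the mean difference of log2 levels per cell was 0.14. Of 13 genes of the mesothelium and visceral mesoderm, WT1 was called higher and 3 were called lower, all 3 transcription factor genes. hand2 stood at 33.5 against 166.1 CPM and at 28.2 against 252.7 CPM, gata6 at 2.27 against 55.8 CPM and 0.14 against 37.4 CPM, and tbx20 at 0.15 against 13.2 CPM and 3.92 against 21 CPM. gata6 reached 20 counts in 0 of the 87 members and tbx20 in 1. Against en1a-positive cells the log2 ratios were 2.72 and -0.99 for hand2, 0.04 and -0.44 for gata6 and 0.20 and 2.30 for tbx20. Of 8 genes of the kidney stroma and pronephros, foxd1 was higher and osr1 and lhx1a were lower. osr1, for an odd-skipped factor of intermediate mesoderm, stood at 14.1 against 51.9 CPM and 8.96 against 44.8 CPM. Its log2 ratios against en1a-positive cells were 2.61 and 2.87.

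Of 29 guidance genes, 9 were called lower (SEMA3A, sema3c, slit2, ntn1a, ntn1b, ntn5, nrp2a, rgma and dcc) and 0 higher, beside 6.17% lower over all genes. The list medians were -0.92 and -0.53, and -0.28 and -0.12 against en1a-low cells, where 4 were lower and 1 higher. Of 7 semaphorin genes tested, 2 were called lower, with SEMA3A at 0.68 and 0.35 CPM against 21.2 and 84.6 CPM and sema3c at 0 in both plates against 12.6 and 17.4 CPM. The other semaphorin genes were not called, among them sema3aa, with log2 ratios of 0.29 and 1.73, and sema3fa, with -1.58 and -0.60. nrp2a, for a neuropilin that serves as a receptor for semaphorins and for Vegfc, was found in 33.3% and 16.7% of members against 52.3% and 35.9% of comparison cells, with log2 ratios of -1.69 and -1.35. Of the 10 retinoic acid genes only cyp26a1, for the enzyme that degrades retinoic acid, was called. It stood at 0.98 and 0.35 CPM in members against 69 and 41.05 CPM.

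Some genes separated the members of plate 1 from those of plate 2. cxcl12a, the paralogue of cxcl12b, was found in 7 of 45 members of plate 1, or 15.6% (6.49 to 29.5), and in 23 of 42 members of plate 2, or 54.8% (38.7 to 70.2). Its level per member had a median of 6.10 CPM and a highest value of 1012 CPM in plate 1, and a median of 209.2 CPM and a highest value of 3639 CPM in plate 2. Against en1a-low cells the log2 ratios of cxcl12a were 0.13 in plate 1 and 3.03 in plate 2. In the en1a-positive cells the gene was frequent in both plates, with ratios of members to these cells of -4.43 and -1.23.

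The lymphangiogenic factor genes vegfc and ccbe1 followed the same pattern. vegfc was found in 2 of 45 members of plate 1 and 12 of 42 members of plate 2, at 8.47 and 85.5 CPM. ccbe1, for a secreted protein needed for Vegfc processing, was found in the same numbers of members, at 20.3 and 128.4 CPM. Against en1a-low cells the log2 ratios were -1.54 and 1.85 for vegfc and -0.47 and 1.36 for ccbe1. apln, a peptide ligand gene of vessels, was found in 2 and 7 members, with ratios of -2.00 and 2.32 against en1a-low cells. Set against en1a-positive cells, members were lower in both plates. The ratios were -4.75 and -1.35 for vegfc, -5.07 and -2.21 for ccbe1, and -4.22 and -2.05 for apln. Whether the wells of the plates differed in sort gate is not given by the labels. The part of the sort in the differences between the plates was not tested. The 2 Vegfc protease genes were rare in members, with adamts3 in 3 of 45 and 5 of 42 and adamts14 in 1 and 0. Of the 10 lymphangiogenic genes tested, 0 were called higher and 1, angpt2b, was called lower, at 0.76 and 0 CPM in members against 35.1 and 14.6 CPM.

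The members also differed among themselves by foxd1. It split them into 23 with and 22 without the gene in plate 1 and into 26 and 16 in plate 2, at similar depth (medians of 283111 and 308487, and of 322512 and 305791). Of 11451 genes tested, 618 were higher and 942 lower by at least 1 on the log2 scale in the foxd1-positive members of both plates. Of 14 other forkhead genes tested, 4 were higher (FOXC1, foxc1b, foxd2 and foxl1) and 2 lower (foxf1 and foxf2a) with foxd1. FOXC1 was found in 18 of 23 and 26 of 26 foxd1-positive members against 12 of 22 and 8 of 16 others, with log2 ratios of 1.77 and 1.95, and foxc1b in 10 and 10 against 3 and 2. Other genes that were higher with foxd1 were GDF10, a BMP-related ligand gene, at 2.37 and 4.92, dact1, an intracellular modulator of Wnt signalling, at 1.54 and 2.18, sfrp5 at 1.42 and 4.19 and hapln1a at 1.23 and 2.05. cxcl12b was itself higher with foxd1, at 2247 against 773 CPM and 1532 against 886 CPM. pdgfra did not follow the split, with log2 ratios of -0.08 and -0.17.

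In the foxd1-negative members, RDH10, for an enzyme of retinoic acid synthesis, stood at 651 against 96.4 CPM and at 272.3 against 18.5 CPM. It was found in 14 of 22 and 6 of 16 of them against 5 of 23 and 1 of 26 foxd1-positive members. hand2, low in members as a whole, was found in 4 and 2 foxd1-negative and in 1 and 0 foxd1-positive members. col18a1b lay almost wholly within the foxd1-positive members, in 18 of its 20 cells, among them all 13 of plate 2. crispld1b was found in 8 of 23 foxd1-positive and 7 of 22 foxd1-negative members of plate 1, and in 1 of 26 and 3 of 16 of plate 2.

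A smaller subset of plate 2 had wt1b. Of 11140 genes tested in this plate alone, 20.2% were past the fold upwards and 29.9% downwards in the 12 wt1b-positive members, so that single genes of this split are descriptions of few cells. Of the 12 wt1b-positive members, 9 also had foxd1, 6 had col18a1b and 2 had WT1. kazald2 and crispld1b were found in 0 of these 12, against 8 and 4 of the 30 wt1b-negative members. cxcl12a was found in 11 of 12 against 12 of 30, at 1521 against 264.8 CPM. The gene listed as COL8A1, for a collagen VIII chain, was found in 8 of 12 wt1b-positive members and in 0 of the 30 others, at 324.7 against 0.29 CPM. Genes listed as CRABP1, for a retinoic acid binding protein, and PRRX1, for a homeobox factor of limb and fin mesenchyme, were found in 0 of 12 against 14 and 11 of 30. Since plate 1 held 1 wt1b-positive member, this subset was seen in 1 plate only.

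**Figure D5:**
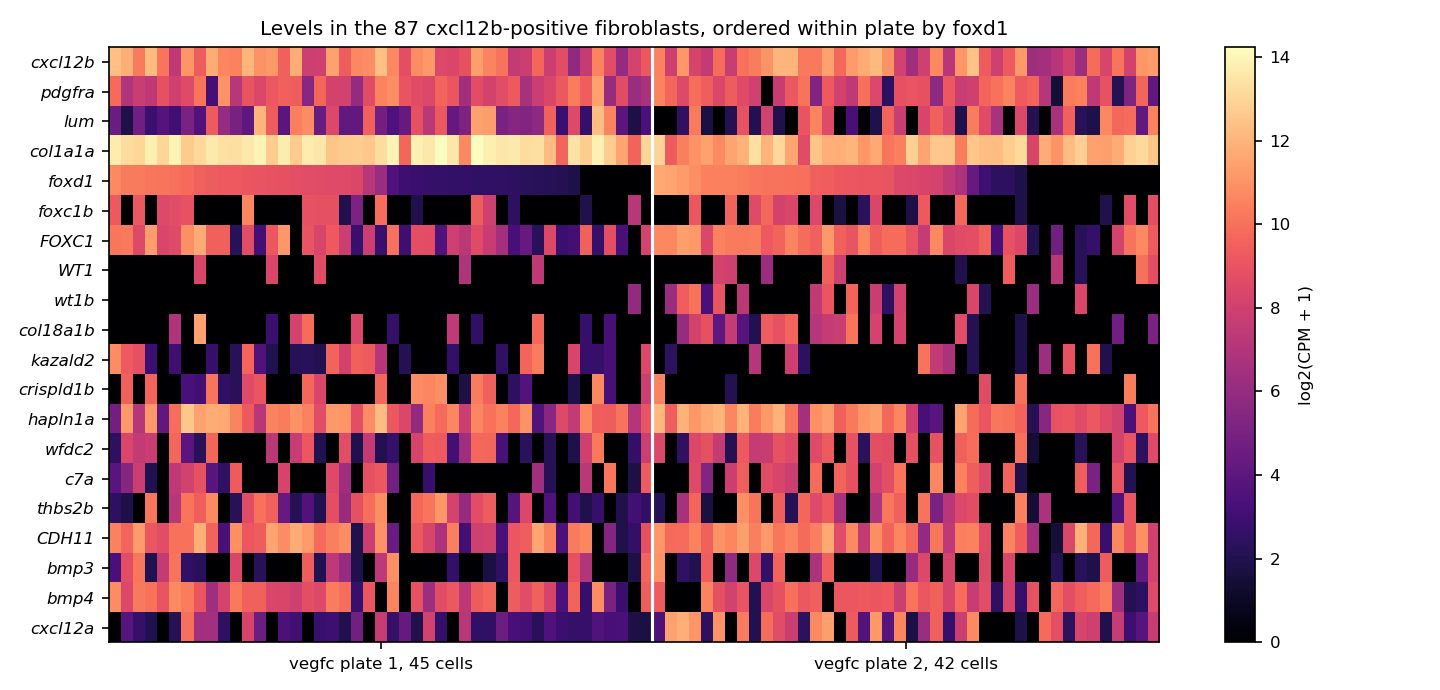
Levels of 20 genes as log2(CPM + 1) (colour) in each of the 87 members (columns), with 45 cells of vegfc plate 1 left of the white line and 42 of plate 2 right of it, ordered within each plate from high to low foxd1. FOXC1 is brightest towards the foxd1-high side, wt1b and cxcl12a are mainly in plate 2, and col1a1a is high in nearly all cells.

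The same rule found few cells in the pdgfra:mCit plate. Only 4 met it, or 1.31% (0.358 to 3.32) of the gated cells, against 26% and 24.1% in the vegfc plates, and a further 6 had cxcl12b together with en1a. Since each line has its own plates, the line and the plate cannot be told apart. Of the 29 named higher genes, 26 had ratios above 0 in these 4 cells against the gated cells with fewer than 20 counts of cxcl12b, and 21 were at least 1 on the log2 scale. Over all genes tested, 32.5% were above 0 and 17.2% at least 1 in that plate. The named genes were chosen for a higher level and a larger share of cells than the genes tested. The 2 sets are therefore not matched, and setting them side by side cannot show that the pattern recurs in this line. FOXC1, hapln1a, CDH11, EBF3 and MATN4 were found in 4 of 4 of these cells, foxd1 in 3 of 4 (465 against 37 CPM) and crispld1b in 2 of 4. wt1b, WT1 and vegfc were at 0 CPM, and col18a1b and kazald2 at 0.54 CPM each. A count of 0 in 4 cells allows a share of up to 60.2% by the exact interval, so the absence of a gene from them cannot be read.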

How the data were processed

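Single trunk cells of embryos at 48 hpf were measured by Smart-seq2. Per the labels and methods, the authors trimmed the reads, ran TopHat2 with Bowtie2 against GRCz11, used samtools to remove so-called doublets, and counted with featureCounts of Subread. There were no molecular identifiers. The authors deposited raw counts per gene and cell after removing cells by depth, gene number and spike-in share, so lowly sequenced cells are missing. The study states versions of these tools, which are not repeated here. No doublet caller was run in addition. Every cell was a column of its own, and 0 columns of values were left unused.

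The file held 32057 genes, 92 spike-ins and 2 reporters, and the last 2 kinds were left out of sums and ratios. A table of gene names and the study's own gene pairs named 28999 genes, of which 1054 came from the latter. Of 444 genes on the lists, 352 were matched to 1 identifier. Strand was not stated, so overlapping and antisense genes cannot be told apart.

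Counts were summed over members and over comparison cells in each plate and divided by their total gene counts. The log2 ratio had a pseudocount of 1 CPM, which understates differences of low genes. Genes with a mean of at least 5 CPM over the 4 sums were tested. Named genes had a symbol, a mean of at least 10 CPM and at least 20 counts in at least 25% of members (for lower genes, of comparison cells) of each plate. The 30 with the highest smaller ratio, cxcl12b included, and the 15 with the lowest larger ratio were taken, with every marker and every called list gene. Members and gene lists were chosen with earlier results of these data known. No test was run, since cells are not replicates and there is 1 sum per class and plate. The steps were tested on simulated data. Python 3.11.15, numpy 2.4.6, pandas 2.3.3, scipy 1.17.1 and matplotlib 3.10.9 were used. Alternatives varied the thresholds, gate, comparison cells, summing, scaling, pseudocount, filter and plates. The aligned reads were not used here. No sequence is shown.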

Additional observations from a re-analysis of the deposited data

Results flagged for a closer look

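Of the markers and named genes called in both vegfc plates, 7 had the opposite direction in the 4 cells that met the same rule in the pdgfra plate, as log2 ratios of CPM plus 1. Among the higher genes these were thbs2b at -3.43, ms4a17a.7 at -3.56, EVA1B at -0.86, col18a1b at -2.47 and kazald2 at -2.54. Among the lower genes they were PDE4B at 0.36 and NUAK1, whose name 2 identifiers share, at 0.41. The difference between the lines was not tested, it rests on 4 cells, and the line and the plate cannot be told apart.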

How the results depend on the processing

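With pdgfra and lum both required, 26 members were left, 5.04% of the genes tested were called higher and 11.8% lower (2.57% and 6.17% in the report), and 1 cell met the rule in the pdgfra plate. With differences of mean log2(CPM + 1) per cell, 1.30% and 0.685% were called. Only 15.9% of the genes called higher in the report and 8.66% of those called lower remained in that setting. The 29 named higher and 15 named lower genes were all among them. With a pseudocount of 5 CPM 1.45% and 4.09% were called, and with no filter on low values 4.598% were lower. Leaving out each vegfc plate in turn left 42 to 45 members, 11.1% to 11.3% higher and 16.9% to 17.1% lower. In an alternative chosen after seeing the data, cells with at least 20 counts of 2 markers of 1 other cell type were left out. It kept 53 members, of which 16 were in plate 1, and 2 cells of the pdgfra plate. It gave 3.21% higher and 7.37% lower, with 45.5% and 56.2% of the genes called in the report, and called 16 of the 29 named higher genes (17 with both gate genes required, 22 against en1a-low cells). Those lost were c7a, thbs2b, CPXM1, angptl2a, cyp1d1, cd248b, emilin1a, RBPJL, ms4a17a.7, MATN4, fgfrl1b and 2 genes known by clone names only. The causes were not tested.

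Mean log2 ratios turned direction for a gene known by a clone name only (-0.12), plvapb (0.24), elavl3 (1.58), cdh1 (0.065) and krt1-19e (0.11) with both gate genes required, for rbp7b (0.90) against en1a-low cells, and for and2 (0.14), plvapb (0.11), cdh1 (0.0095), krt5 (0.022) and krt1-19e (0.34) with means per cell. Without the cells with markers of another type they did so for col18a1b (-0.017), elavl3 (1.32), cdh1 (0.032), krt5 (0.54) and krt1-19e (1.13). The other alternatives turned 0 of the called genes among the 389 named and listed. Shares of members left their interval for 3 genes at 10 counts, 9 at 50 counts and 8 with cells thinned to 50000 counts. Each ratio sets members against comparison cells of the same plate, so it is paired by plate; no replicate block was fitted, since no test was run. At 87 members, a gene found in 0 cells can be in up to 3.45% of them, as 3 divided by the number of cells.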

Other observations

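Further gene groups were counted. Of 18 hedgehog pathway genes, gli3, a transcription factor of the pathway, was called higher, with log2 ratios of 1.01 and 1.23, and 0 were called lower. Against en1a-low cells gli3 was not called, at 0.50 and 1.18. Of 19 basement membrane genes, col18a1b was called higher and col15a1b and col4a5 lower, at list medians of -0.22 and -0.24. Of 6 tendon genes 0 were called, and of 9 mural cell genes 1, abcc9, a channel subunit gene of mural cells, was lower, at 3.17 against 14.7 CPM and 9.52 against 30.3 CPM. Against en1a-positive cells the log2 ratios of abcc9 were 1.73 and 3.27. Of 10 genes for insulin-like growth factor binding proteins and related secreted proteins, kazald2 and crispld1b were higher and igfbp1a, igfbp3 and igfbp7 lower.

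Among endothelial genes, flt4, for the receptor of Vegfc, was called higher in members. It was found in 8 of 45 and 5 of 42 members against 8 and 5 comparison cells, at 78.1 against 26.8 CPM and 51 against 5.36 CPM, while cdh5 was at 0 and 3.15 CPM in members. The other endothelial genes called, plvapb and egfl7, were lower, although plvapb was at 0.11 as a mean of log2 levels per cell.

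Outside the gate, 35 further cells of the vegfc plates had at least 20 counts of cxcl12b but fewer than 20 of both pdgfra and lum.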
